A study of Caenorhabditis elegans with 8 samples.

Results

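Germlines of *nmad-1* worms were compared with germlines of wild-type (WT) worms at 20°C, with 2 libraries of each genotype, which are 4 of the 8 libraries of the study. Every gene with a mean value of at least 10 over the 4 libraries was included, 12260 of the 46739 genes in the table. *nmad-1* encodes a putative demethylase of the AlkB family in *C. elegans*, and the study asked how its loss alters germline expression. Each library held mRNA from the germlines of 100 worms, with the stage given as L4, in N2 Bristol (the WT background) or in an *nmad-1* mutant. The labels give the mutant genotype only as nmad1, and the strain list of the study names the deletion ok3133 and a catalytic mutant, so the allele of these libraries is taken here as the labels give it. No outcrossing and no number of independent lines are given in the sources used here. The methods call the samples biological replicates, and nothing says that they came from separate cultures, so the p-values measure the spread between these samples, which may be technical. The columns carry no replicate numbers, and A and B only tell the libraries of a genotype apart. Values are normalized expected counts: the estimated count of each gene divided by a size factor of its library.

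The hermaphrodite germline is a tube in which nuclei move from a distal pool of dividing stem cells through meiosis. It makes sperm first, late in larval life, and then switches to oocytes, and the somatic sheath, intestine and muscle lie against it. Major sperm protein (msp) genes are transcribed in developing sperm, while yolk proteins (vitellogenins, vit) are made in the intestine and taken up by oocytes. AlkB family proteins are oxygenases that remove methyl groups from nucleic acids. An expression measurement of dissected gonads therefore reads the germ cells, the balance of sperm and oocyte stages and whatever somatic tissue came along. In such bulk samples, fewer cells of a type and less RNA per cell cannot be told apart.

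Estimated depth was 18451560 reads in WT A, 29849389 in WT B, 29863395 in *nmad-1* A and 31738127 in *nmad-1* B. The libraries of a genotype did not lie equally close together. The median absolute log2 difference over the genes tested was 0.159 between the WT libraries and 0.452 between the *nmad-1* libraries, and *nmad-1* B lay nearer to the WT libraries (0.233 and 0.220) than to *nmad-1* A. Of the genes tested, 2123 were at least 2-fold higher in *nmad-1* A than in B, and 137 were at least 2-fold higher in B. Of the sum of squares over all genes, 39.2% lay between the genotypes, 17.999% within WT and 42.8% within *nmad-1*. Ribosomal RNA took 22.2% and 22.4% of the value in WT and 34.8% and 25.8% in *nmad-1* A and B. *nmad-1* A also had the most genes above 0, 18542 against 16578 to 17099 in the others. Each result is therefore given for the *nmad-1* libraries apart.

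Germ cell markers were high in all 4 libraries. gld-1, a translational repressor of meiotic germ cells, stood at 30537 and 29597 in WT and at 19342 and 29187 in *nmad-1* A and B. rme-2, the yolk receptor of oocytes, stood at 34807 and 34447 in WT and at 22129 and 33940 in *nmad-1*. Somatic markers were present as well: unc-54, the major muscle myosin heavy chain, stood at 12379 and 18131 in WT and at 29552 and 12162 in *nmad-1* A and B. The whole muscle list, 40 genes tested, took 0.454% and 0.583% of the value outside ribosomal RNA in WT and 1.15% and 0.439% in *nmad-1* A and B. The intestine and yolk list, 43 genes tested, took 1.53% and 1.81% in WT and 0.949% and 2.24% in *nmad-1* A and B. The 6 vit genes carried that difference: without them the other 37 genes took 0.220% and 0.254% in WT and 0.344% and 0.340% in *nmad-1* A and B. *nmad-1* A was thus the highest library for muscle and the lowest for yolk, and both *nmad-1* libraries lay above WT for the intestinal genes other than vit. The part of these differences in the results that follow was not tested.

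With limma on log2(value + 1) and Benjamini-Hochberg adjustment, 59 genes passed an adjusted p of 0.05, which is 0.481% of those tested. Of these 42 were higher in *nmad-1* (0.343%) and 17 lower (0.139%). All 59 are annotated as protein coding, and 26 carry only a sequence name. The genotypes did not overlap in 58 of them, the exception being msp-51. Over all genes tested, both *nmad-1* values lay above both WT values in 16.6% and below both in 19.1%.

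**Figure D1:**
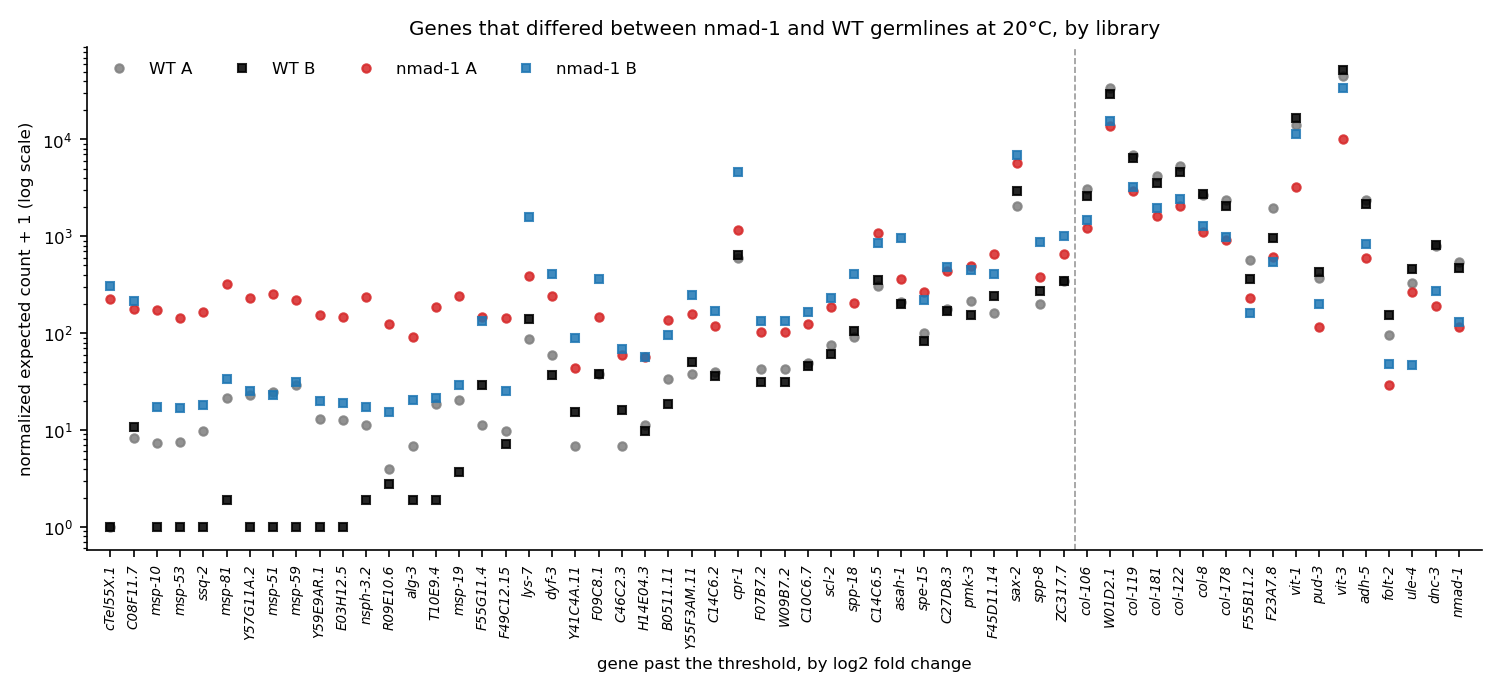
Normalized expected count plus 1 (y axis, log scale) of each of the 59 genes past the threshold (x axis, from the highest to the lowest log2 fold change), with 1 point per library: grey circles and black squares for WT A and B, red circles and blue squares for nmad-1 A and B. Among the 42 higher genes, left of the dashed line, 15 have nmad-1 A at least 4 times nmad-1 B, with WT B the lowest point, and 20 have the red and blue points within 2-fold.

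The targeted gene was the first check on the labels. *nmad-1* (WBGene00017304, chromosome III) stood at 540.3 and 471 in WT and at 114 and 131 in the libraries labelled *nmad-1*. All 4 values fell on the side their label gives, with a 4.14-fold lower mean in *nmad-1* (log2 fold change −2.04, SE 0.30, limma adjusted p = 6.0e-05). A level remained in both mutant libraries, at 2.14 and 1.94 log2 units under the WT mean for A and B. Which part of the gene the reads came from was not analysed here. Of the 8 genes tested in the list of AlkB and DNA adenine methylation genes, *nmad-1* was the only member past the threshold. The study's own 25°C libraries, normalized in another table, gave 764 and 753 in WT and 170.4 and 171 in *nmad-1*.

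The largest fold change belonged to cTel55X.1, on chromosome X. It was at 0 in both WT libraries and at 225 and 304 in *nmad-1* A and B. Against a floor of 3 reads per library, averaged over WT, the *nmad-1* mean was higher by at least 74.7-fold (limma adjusted p = 3.8e-10). In the WBcel235 annotation, no protein-coding gene lies between it and the right end of X. At 25°C the same on-off pattern appeared in 4 other libraries, with 0 and 0 in WT and 213 and 291 in *nmad-1*.

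C08F11.7, on chromosome IV, came second by fold. It stood at 7.36 and 9.76 in WT and at 176 and 215 in *nmad-1*, 22.8-fold higher (log2 fold change 4.37, SE 0.47, limma adjusted p = 3.9e-08). Both mutant libraries contributed, at 4.22 and 4.51 log2 units above the WT mean. cTel55X.1, C08F11.7 and lys-7 were the 3 genes of the 59 that passed the threshold without any one of the 4 libraries.

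The 20 higher genes whose *nmad-1* values were within 2-fold of each other held most of the characterised genes outside the sperm and gut. dyf-3, a gene of the sensory cilia, stood at 58.9 and 36.4 in WT and at 239.6 and 411 in *nmad-1* (log2 fold change 2.73, SE 0.36, limma adjusted p = 4.0e-06). pmk-3, a p38 MAP kinase, stood at 212 and 152 in WT and at 489.9 and 450.0 in *nmad-1* (1.38, SE 0.30). sax-2, the homologue of the fly Furry protein, had the largest values of the group, 2071 and 2958 in WT and 5779 and 6963 in *nmad-1* (1.36, SE 0.26, limma adjusted p = 0.0042). None of these values overlapped between the genotypes.

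scl-2, of the SCP-like extracellular protein family, stood at 75.1 and 60.4 in WT and at 185 and 229 in *nmad-1*. spe-15, a myosin VI that acts when spermatids bud, stood at 98.6 and 82.5 in WT and at 265 and 219.5 in *nmad-1* (1.41, SE 0.33, limma adjusted p = 0.028). Among the sperm genes past the threshold, spe-15 was the one whose mutant libraries lay close together. The remaining genes of the 20 carry sequence names.

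Among them F55G11.4 stood at 10.3 and 28.4 in WT and at 144 and 133 in *nmad-1* (2.94, SE 0.47), and C14C6.5 at 306 and 349.7 in WT and at 1083 and 861 in *nmad-1* (1.56, SE 0.28). C14C6.2, on the same stretch of chromosome V with 6 protein-coding genes between them, stood at 38.3 and 35.5 in WT and at 118 and 170.4 in *nmad-1*. F07B7.2 and W09B7.2 had identical values in every library, 41.96 and 30.6 in WT and 101 and 132 in *nmad-1*, as near-identical copies can when reads are shared between them. They are uncertain as separate genes and are better read as 1 measurement.

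A second set of 7 higher genes had *nmad-1* B at least 2-fold above A: lys-7, cpr-1, spp-18, spp-8, asah-1, F09C8.1 and Y41C4A.11. lys-7, a lysozyme, stood at 85.4 and 138 in WT and at 390.5 and 1586 in *nmad-1* A and B (2.84, SE 0.37, limma adjusted p = 4.0e-06). cpr-1, a cathepsin B-like protease of the gut, stood at 595 and 646 in WT and at 1165 and 4665 in *nmad-1* A and B (1.91, SE 0.34, limma adjusted p = 0.0013). Both genes rose in each mutant library, by 1.83 and 3.85 log2 units for lys-7 and by 0.91 and 2.91 for cpr-1.

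The saposin-like genes spp-18 and spp-8 and the acid ceramidase gene asah-1 also had *nmad-1* B highest, A next and both WT libraries below. spp-18 stood at 89.8 and 103.8 in WT and at 201 and 410.2 in *nmad-1*, spp-8 at 199 and 274 in WT and at 382 and 866 in *nmad-1*. asah-1 stood at 208 and 198 in WT and at 365 and 964 in *nmad-1* A and B (1.54, SE 0.33, limma adjusted p = 0.016). Of these genes, cpr-1 and spp-8 belong to the intestine and yolk list. Among its 37 genes other than vit, 14 had both *nmad-1* values above both WT values and none below. Over all genes tested the shares were 16.6% above and 19.1% below. The median log2 difference of the 37 genes was 0.23 in A and 0.36 in B, against −0.09 and 0.01 over all genes tested. The share of the 37 genes given above moved in the same direction as these rises. It includes cpr-1 and spp-8, so this is not a separate result for them. The part of that share in the rises was not tested. lys-4, another lysozyme gene, stood at 80.97 and 96.7 in WT and at 114 and 643 in *nmad-1* (limma adjusted p = 0.066), so its excess lay in B.

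**Figure D2:**
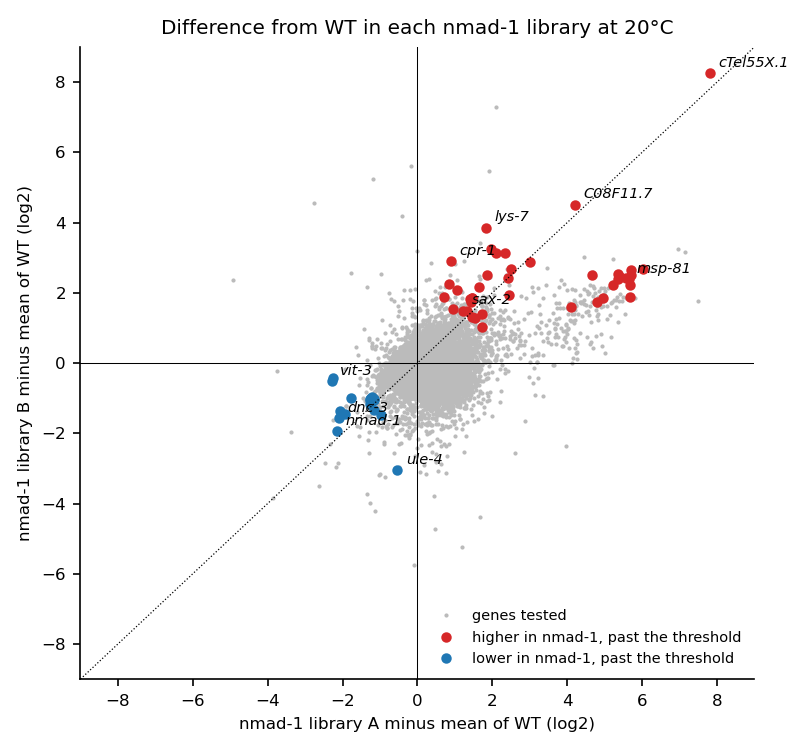
Log2 difference of nmad-1 library A (x axis) and library B (y axis) from the mean of the WT libraries, for the 12260 genes tested (grey) and the genes past the threshold (42 higher in red, 17 lower in blue). Both axes use the same WT libraries. cTel55X.1 (7.82 in A and 8.25 in B) and nmad-1 (−2.14 and −1.94) lie near the dotted line of equality, msp-81 lies to the right of it, and lys-7 (1.83 and 3.85) lies above it.

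The third set of higher genes had *nmad-1* A at least 4 times B. It held 15 genes, of which 14 lie on chromosome IV, 7 belong to the msp or sperm lists and the others mostly carry sequence names. They included msp-10, msp-19, msp-51, msp-53, msp-59 and msp-81, the sperm Argonaute gene alg-3, ssq-2 of a sperm-specific family and nsph-3.2 of a nematode-specific peptide family. msp genes are near-identical copies whose shared reads can be divided among them, so each single msp value is uncertain.

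In many of these genes the libraries differed severalfold within each genotype too. The WT libraries lay closer together for F49C12.15 (8.83 and 6.21) and R09E10.6 (2.94 and 1.78). msp-81 stood at 20.6 and 0.888 in WT A and B and at 318 and 32.5 in *nmad-1* A and B (4.02, SE 0.77, limma adjusted p = 0.0045). msp-51 stood at 23.6 and 0 in WT and at 254 and 22.2 in *nmad-1* A and B (3.96, SE 0.90, limma adjusted p = 0.026), so *nmad-1* B lay just under WT A. alg-3 stood at 5.89 and 0.888 in WT and at 89.5 and 19.5 in *nmad-1* (3.58, SE 0.89, limma adjusted p = 0.045). In msp-81, msp-51 and alg-3, WT A exceeded WT B by severalfold, and *nmad-1* A exceeded *nmad-1* B by severalfold.

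Of 35 msp genes listed, 27 passed the filter on the mean value. Genes low in WT could pass it through *nmad-1* A alone, which favours a high A and a rise over WT. The counts and medians below that involve *nmad-1* A carry this limit. Over all 27 msp genes tested, *nmad-1* A was the highest library in 27 and WT B the lowest in 26, at 0 in 21. The order in between was not fixed: *nmad-1* B lay above WT A in 13 genes and below it in 14, with a median log2 difference of −0.05. The summed msp level was 381 and 8.88 in WT A and B and 3897 and 361 in *nmad-1* A and B. The median log2 gap between the *nmad-1* libraries, 3.30, was about the gap between the WT libraries, 3.34. Both *nmad-1* values lay above both WT values in 13 of the 27 genes (48.1%, against 16.6% of all genes tested), and 6 passed the threshold. The median log2 fold change of the list was 3.31 with all 4 libraries, 1.51 without WT B, 1.76 without *nmad-1* A and 5.28 without WT A.

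Sperm genes outside the msp family showed the same order less completely. Of 54 listed, 34 passed the same filter. Genes low in WT could again pass it through *nmad-1* alone, so the counts below carry the same limit. Among the 34, *nmad-1* A was the highest library in 27, WT A exceeded WT B in 31, and *nmad-1* B lay above WT A in 22. Both *nmad-1* values exceeded both WT values in 17 genes (16.6% of all genes tested did), and spe-15 and alg-3 passed the threshold. ssp-11, a sperm-specific gene listed at 0 in both WT libraries, stood at 139.7 in *nmad-1* A and 8.00 in B (limma adjusted p = 0.055). fog-3, which directs germ cells to the sperm fate, stood at 11.8 and 12.4 in WT and at 33.2 and 46.6 in *nmad-1*, did not pass (limma adjusted p = 0.41), and had A below B.

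The genes furthest above WT in *nmad-1* A had the same order of the WT libraries. In 197 genes A was at least 8-fold above the WT mean, and WT A exceeded WT B in 180 of them. WT B was at 0 in 109 and WT A in 6. Choosing genes this way favours a high A and WT values at 0, so neither is a separate result. The choice treats WT A and WT B alike, so only their order is read here. Of the 197, 83 lie on chromosome IV, 46 belong to the msp or sperm lists and 17 passed the threshold. *nmad-1* B was at least 8-fold above the WT mean in 17 genes, of which 12 lie on chromosome IV and 6 passed the threshold.

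Chromosome IV held 25 of the 42 higher genes and 2050 of the 12260 genes tested. msp genes are known to lie in clusters on chromosomes II and IV, and of the 25, 14 had *nmad-1* A at least 4 times B and 9 had even mutant libraries. The other higher genes were 4 on I, 1 on II, 3 on III, 7 on V and 2 on X, and of the 17 lower genes 5 lay on IV and 5 on X. Some of the genes were close neighbours in the WBcel235 gene order. msp-81 and msp-10 were adjacent, C08F11.7 (higher) and ule-4 (lower) had 2 protein-coding genes between them, col-122 (lower) and spp-18 (higher) had 3, and F09C8.1 (higher) and F23A7.8 (lower) had 5. Neighbours past the threshold thus included pairs that moved apart as well as pairs that moved together.

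The 17 lower genes were more even between the mutant libraries, 14 of them within 2-fold. dnc-3, a dynactin subunit gene, stood at 798 and 813 in WT and at 189 and 269.5 in *nmad-1* (−1.83, SE 0.29, limma adjusted p = 0.00016). adh-5, of the alcohol dehydrogenase family, stood at 2349 and 2181 in WT and at 592 and 824 in *nmad-1* (−1.69, SE 0.27, limma adjusted p = 0.00016). folt-2, of the folate transporter family, stood at 95.7 and 153 in WT and at 28.2 and 46.6 in *nmad-1*. pud-3, a gene known for its rise in daf-2 mutants, stood at 367 and 429.6 in WT and at 114 and 199 in *nmad-1*. None of these 4 genes overlapped between the genotypes. In the dynein and dynactin list, 11 of 22 genes had both *nmad-1* values below both WT values (19.1% of all genes tested had) and dnc-3 alone passed.

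ule-4, a gene of the uterine lumen, differed between the mutant libraries most among the lower genes. It stood at 327 and 454 in WT and at 266 and 45.8 in *nmad-1* A and B (−1.79, SE 0.41, limma adjusted p = 0.026). F23A7.8 stood at 1948 and 953 in WT and at 610.4 and 542 in *nmad-1*, F55B11.2 at 567 and 366 in WT and at 229.6 and 162 in *nmad-1*. W01D2.1 stood at 33689 and 29133 in WT and at 13914 and 15497 in *nmad-1* (−1.09, SE 0.25).

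Cuticle collagen (col) genes were the largest named group among the decreases, with 6 of the 17. col-119 stood at 6958 and 6417 in WT and at 2971 and 3251 in *nmad-1*, and col-122 at 5312 and 4664 in WT and at 2051 and 2438 in *nmad-1* (log2 fold change −1.15). col-8, col-106, col-178 and col-181 had log2 fold changes of −1.16, −1.08, −1.21 and −1.12. In all 6, *nmad-1* A was the lowest library and B the next. The other 92 col genes tested had a median log2 difference from WT of 0.23 in A and −0.83 in B, with 73 below the WT mean in B and 31 in A. Of the 92, 16 had both *nmad-1* values below both WT values and 7 had both above, and 20 were lower and 1 higher at an unadjusted p under 0.05. With the 6 included, 22.4% of the list lay below both WT values and 7.14% above. Among all genes tested these shares were 19.1% and 16.6%, so the share below was near that of all genes. Over all 98 the median was −0.40 with all libraries and 0.21 without *nmad-1* B. The summed col level was 73176 and 73246 in WT and 56546 and 38340 in *nmad-1* A and B.

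Of the yolk genes, vit-1 and vit-3 fell, further in *nmad-1* A than in B. vit-3 stood at 45564 and 52342 in WT and at 10040 and 34266 in *nmad-1* A and B (−1.40, SE 0.31, limma adjusted p = 0.022). vit-1 stood at 14078 and 16581 in WT and at 3193 and 11405 in *nmad-1* A and B (−1.34, SE 0.32, limma adjusted p = 0.030). The other members did not pass: vit-2 stood at 62555 and 70544 in WT and at 27165 and 107886 in *nmad-1*, vit-5 at 52861 and 61945 in WT and at 18417 and 78599 in *nmad-1*, vit-6 at 64437 and 74297 in WT and at 28149 and 109283 in *nmad-1*. vit-4 stood at 37934 and 44256 in WT and at 10626 and 36620 in *nmad-1* (limma adjusted p = 0.14). In all 6 vit genes *nmad-1* A lay below both WT libraries and below *nmad-1* B, and in vit-2, vit-5 and vit-6 *nmad-1* B lay above both WT libraries. vit genes are similar in sequence, so reads can be divided among them.

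**Figure D3:**
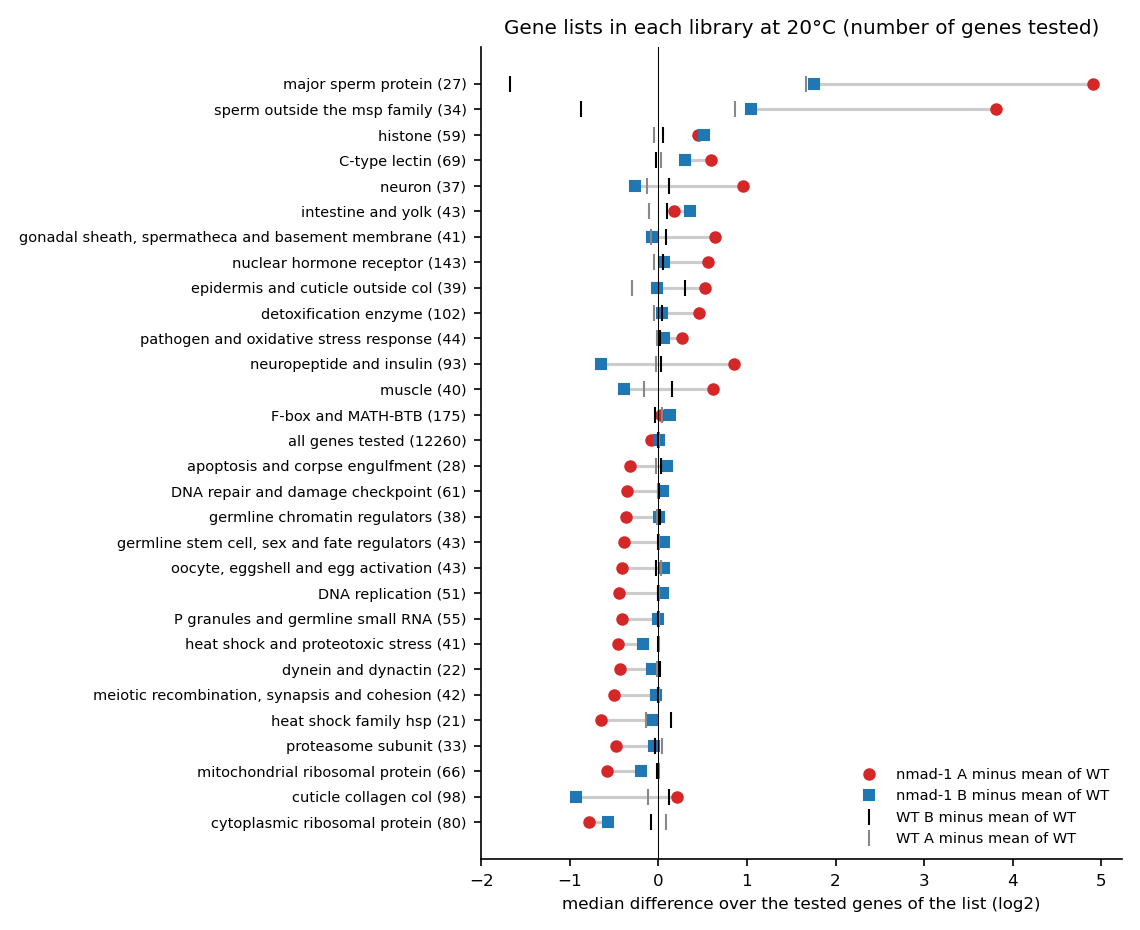
Median log2 difference from the mean of the WT libraries (x axis) over the tested genes of each gene list (y axis, with the number tested), for nmad-1 A (red circles) and nmad-1 B (blue squares), with WT A and WT B as grey and black ticks. Ribosomal protein genes lie left of 0 in both libraries (−0.78 and −0.56), histone genes right of 0 in both (0.45 and 0.51), and neuropeptide and col genes on opposite sides.

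Some gene groups differed little gene by gene but lay on the same side of WT in both mutant libraries. Cytoplasmic ribosomal protein genes encode the structural proteins of the ribosome. Of 80 tested, 77 had both *nmad-1* values below both WT values, against 19.1% of all genes tested. The median log2 difference was −0.78 in A and −0.56 in B. None passed the threshold in limma, 71 were lower at an unadjusted p under 0.05 (2.67% of all genes tested were), 14 passed with robust shrinkage and 2 with library weights. rpl-26 stood at 28944 and 28912 in WT and at 13074 and 16621 in *nmad-1* (limma adjusted p = 0.054), and rps-27 at 19120 and 14755 in WT and at 7953 and 9910 in *nmad-1*. The list took 12.62% and 11.6% of the value outside ribosomal RNA in WT and 8.99% and 8.56% in *nmad-1*. Its median was −0.66 as deposited and lay between −0.60 and −0.39 under 4 other scalings. In 25°C libraries the same 77 genes were lower in both *nmad-1* libraries than in both WT libraries, with a list median of −1.16.

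Mitochondrial ribosomal protein genes had smaller differences, with medians of −0.58 in A and −0.20 in B. Of 66 tested, 54 lay below both WT values (81.8%, against 19.1% of all genes tested) and 8 were lower at an unadjusted p under 0.05. Of the 12 mitochondrial genome transcripts 7 lay below both WT values (58.3%). That list took 0.374% and 0.393% of the value outside ribosomal RNA in WT and 0.378% and 0.331% in *nmad-1* A and B. On that measure A lay between the WT libraries. The list median was −0.27 as deposited and lay between −0.36 and −0.05 under 4 other scalings. nduo-5, a subunit of complex I, stood at 4125 and 5614 in WT and at 2446 and 2803 in *nmad-1* (limma adjusted p = 0.13). Of 41 heat shock and proteotoxic stress genes, 17 lay below both WT values (41.5%) and none above. Among the 1226 genes with the highest means, 36.3% lay below both and 2.12% above. The heat shock list median was −0.23 as deposited and lay between −0.18 and −0.02 under 4 other scalings. hsp-90, the cytosolic chaperone, stood at 100809 and 101794 in WT and at 60047 and 79858 in *nmad-1* (−0.55). No gene of these 3 lists passed the threshold in limma, while 8, 5 and 4 of them in the order given were lower at an unadjusted p under 0.05 and 2 mitochondrial genome transcripts passed with robust shrinkage.

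Histone genes lay on the other side. Of 59 tested, 41 had both *nmad-1* values above both WT values, against 16.6% over all genes, and 1 had both below. The median log2 difference was 0.45 in A and 0.51 in B, 12 genes were higher and 1 lower at an unadjusted p under 0.05, and none passed the threshold in limma or with robust shrinkage. Worm histone genes are repeated copies, and 18 of the 59 shared their values with another, leaving 48 distinct sets of values. his-31 stood at 32.4 and 47.9 in WT and at 76.3 and 90.7 in *nmad-1* (1.06, limma adjusted p = 0.48). The list took 0.242% and 0.253% of the value outside ribosomal RNA in WT and 0.333% and 0.347% in *nmad-1*. Most histone mRNAs carry no poly(A) tail, so libraries made from poly(A) RNA read only part of them, and whether that part differed between the libraries was not tested. The ribosomal RNA share moved with the genotype as well, as given above.

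The 25°C libraries had the opposite order for histone genes. There the list took 0.373% and 0.301% in WT and 0.242% and 0.282% in *nmad-1*, with 29 genes lower and 4 higher in both *nmad-1* libraries. Of the 41 genes higher at 20°C, 18 were lower at 25°C and 1 was higher. Over all genes tested at 20°C, 45.5% were lower and 41.5% higher in both *nmad-1* libraries at 25°C. The difference between the temperatures was not tested.

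**Figure D4:**
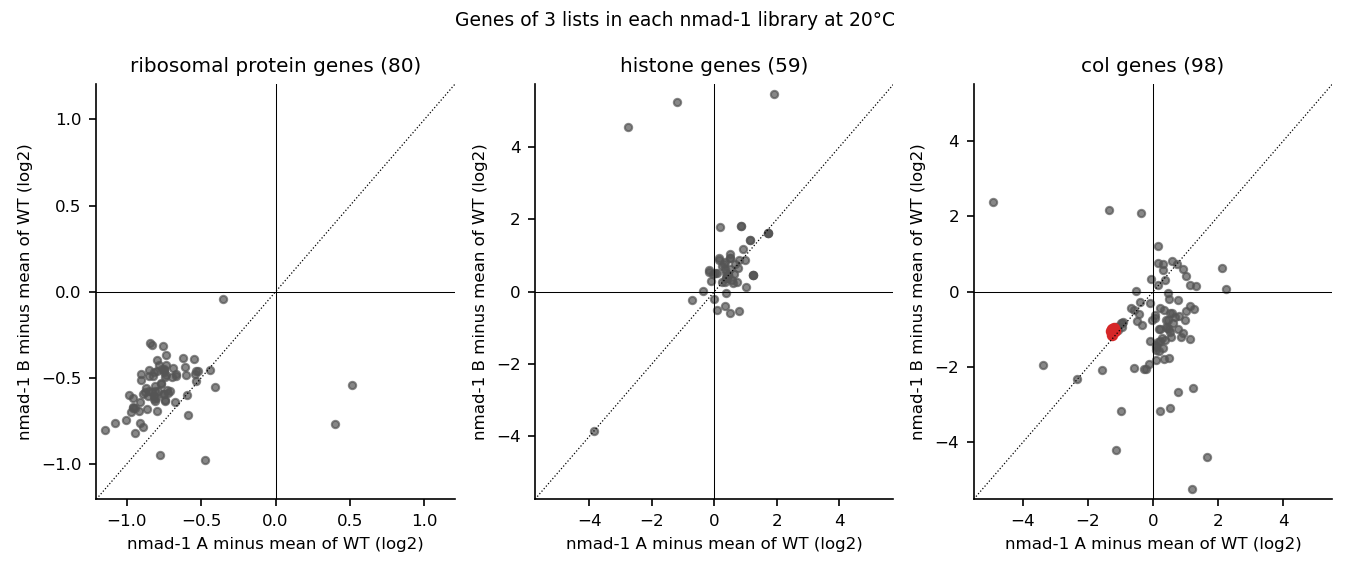
Log2 difference from the mean of the WT libraries in nmad-1 A (x axis) and nmad-1 B (y axis) for each gene of the ribosomal protein (80), histone (59) and col (98) lists, with genes past the threshold in red, and the dotted line marking equality. 77 ribosomal protein genes have both nmad-1 values below both WT values, 41 histone genes have both above, and the 6 red col genes lie together near −1.1 on both axes while most others lie below 0 only in B.

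Lists of germline function lay below WT in *nmad-1* A and near it in B. Over 42 genes of meiotic recombination, synapsis and cohesion the median was −0.50 in A and −0.03 in B. Of these, 20 lay below both WT values (47.6%, against 19.1% of all genes tested) and none above. None passed the threshold in limma or with robust shrinkage, and 1 was lower at an unadjusted p under 0.05. The axis gene htp-3 stood at 2872 and 2929 in WT and at 1957 and 2624 in *nmad-1*, the meiotic cohesin genes coh-3 at 1428 and 1521 in WT and at 958 and 1248 in *nmad-1*, and coh-4 at 979 and 1000 in WT and at 713 and 883 in *nmad-1*. The groups did not overlap in these genes, and the limma adjusted p was 0.95, 0.90 and 0.95. mtss-1, the single-strand binding protein of mitochondria, was more even, at 2690 and 2370 in WT and at 1556 and 1741 in *nmad-1* (−0.62, limma adjusted p = 0.54). It belongs to the DNA replication list, where 8 of 51 genes lay below both WT values (15.7%, against 19.1% of all genes tested). That list had medians of −0.45 in A and 0.05 in B. In the repair list 8 of 61 lay below both (13.1%), with medians of −0.36 and 0.05. The study also names top-2, mcm-4, rad-51, spo-11, cep-1, ced-3, ced-1 and cosa-1, and no separation of the groups was found for them.

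P granule and small RNA genes (55 tested, medians −0.41 and 0.00) and the germline stem cell regulators (43 tested, −0.39 and 0.07) had the same form. Oocyte and eggshell genes (43 tested) had medians of −0.41 in A and 0.07 in B. Over both mutant libraries the stem cell and oocyte medians were −0.17 each and changed sign, to 0.05 and 0.04, when libraries were scaled to the same total outside ribosomal RNA, while the meiotic median (−0.25) shrank to between −0.20 and −0.04 under the 4 other scalings. Proteasome subunit genes (33 tested) likewise had medians of −0.48 in A and −0.05 in B. Of these, 12 lay below both WT values (36.4%) and none above. That share was near the 36.3% below both among the 1226 genes with the highest means. Lists of somatic cells had the reverse sign in A: neuron genes (37 tested) had medians of 0.95 in A and −0.27 in B, and muscle genes 0.62 and −0.38. Neuropeptide and insulin genes (93 tested) had medians of 0.85 and −0.65, with A above B in 92. These somatic lists had medians of opposite sign in the *nmad-1* libraries. C-type lectin genes had medians of 0.60 in A and 0.30 in B. Of 69 tested among 265 listed, 32 lay above both WT values (46.4%, against 16.6% of all genes tested) and 4 below. In this list and the next, genes low in WT could pass the filter through their *nmad-1* values. Nuclear hormone receptor genes had medians of 0.56 in A and 0.07 in B. Of 143 tested among 285 listed, 46 lay above both WT values (32.2%) and 3 below (2.10%). Among the 1226 genes with the lowest means the shares were 29.4% above both and 6.28% below.

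The difference of *nmad-1* A also followed the level of expression. In the 1226 genes with the lowest means the median log2 difference from WT was 0.75 in A and 0.02 in B, and in the 1226 with the highest −0.39 in A and 0.01 in B. Both *nmad-1* values lay above both WT values in 29.4% of the lowest set and 2.12% of the highest. They lay below both in 6.28% of the lowest set and 36.3% of the highest. By chromosome, X and V genes had medians of 0.29 and 0.14 in A and −0.01 and −0.01 in B, while those of I and III were −0.27 and −0.27 in A.

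**Figure D5:**
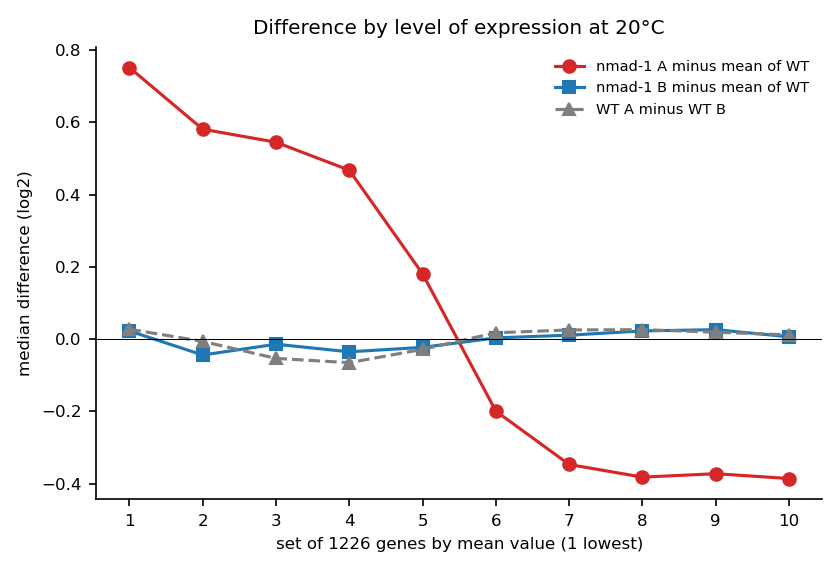
Median log2 difference (y axis) in each of 10 sets of 1226 genes, ordered by mean value (x axis, 1 lowest), for nmad-1 A (red) and nmad-1 B (blue) against the mean of the WT libraries and for WT A minus WT B (grey, dashed). nmad-1 A runs from 0.75 to −0.39, while nmad-1 B and the WT pair stay near 0.

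The 59 genes were also read in the libraries kept at 25°C, which are other samples of the same genotypes. Of the 42 higher genes, 40 had both *nmad-1* values above both WT values there (41.5% of all genes did), and C46C2.3 and F45D11.14 overlapped. Of the 17 lower genes, 8 were lower there (45.5% of all genes were), 6 overlapped, and ule-4, col-106 and F55B11.2 were higher. lys-7 stood at 67.3 and 27.4 in WT and at 1518 and 3174 in *nmad-1* at 25°C, and cpr-1 at 48.5 and 63.6 in WT and at 1161 and 3850 in *nmad-1*. dnc-3 stood at 917 and 1076 in WT and at 207 and 215 in *nmad-1*, and adh-5 at 2491 and 2809 in WT and at 859.6 and 829 in *nmad-1*. sax-2, raised at 20°C, stood at 2938 and 3429 in WT and at 5423 and 6620 in *nmad-1*. The mutant values of these genes did not overlap with WT at either temperature.

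The number of genes past the threshold depended on the libraries and on the scaling. It was 4180 without *nmad-1* B, 82 without *nmad-1* A, 36 without WT A and 5 without WT B, and 0 when libraries were scaled to their upper quartiles, with 1075 genes at an unadjusted p under 0.05. All 59 genes kept their direction in each of these fits. In 58 of them the genotypes did not overlap, so leaving out a library could not have reversed it. Under the upper quartile scaling 57 still had groups that did not overlap. The genes were picked for their difference in these same libraries, so neither count is an independent check.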

How the data were processed

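Germline mRNA was isolated with an oligo(dT) bead kit, made into libraries and sequenced. The authors aligned reads to WS220 with Bowtie2 (2.2.9, per the submitters' processing notes) and quantified them with RSEM (1.3.0). The deposited signal per gene and library is an expected count divided by an EBSeq size factor, as read from the values: 90.9% to 92.0% of values above 0 were whole multiples (tolerance 0.01) of the value of 1 read, too few for a count test. The depth was estimated from that step, and 3 reads were taken as the limit of a count of 0, which covers counting error only. A deposited table of comparisons (posterior probabilities and fold changes) was not used.

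The sample descriptions name only the numbered comparison of columns. Each column was assigned to a genotype because the study's supplement lists that comparison as *nmad-1* against WT at the temperature concerned. Of 46739 gene IDs, 43720 had a current symbol. Chromosomes and gene order came from WBcel235, another build, so no coordinate or sequence is given. The test was limma (3.58.1, R 4.3.3), run with a mean-variance trend and without covariates on log2(value + 1) of the genes whose mean reached 10, at a Benjamini-Hochberg adjusted p of 0.05. Fold changes on this scale understate the change of low genes. The samples of a genotype differed by more than sampling noise (chi-square per degree of freedom 21.7 in WT and 113 in *nmad-1*). The code was tested on simulated data.

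The members and lists were chosen with earlier results of these data known. The genes named by rule were *nmad-1*, up to 15 genes in each direction that passed the threshold, averaged at least 50 and had groups that did not overlap, list members past the threshold (otherwise the 2 with the smallest p), genes of the study's text whose groups did not overlap, and those furthest apart between the *nmad-1* libraries. Other genes past the threshold, and gld-1, rme-2, unc-54, fog-3, ssp-11 and the vit genes that did not pass, were chosen once their values were known. Alternatives covered other pseudocounts, filters, scalings and limma settings, and each library left out in turn.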

Additional observations from a re-analysis of the deposited data

Results flagged for a closer look

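Each of 5 genes moved one way in both *nmad-1* libraries at 20°C and the other way in both at 25°C, with no overlap with WT at either temperature. They are those among the genes named here, and 380 of the 12260 genes tested (3.10%) had the same pattern. The temperatures were normalized in separate tables, and the difference between them was not tested. For ule-4 the log2 fold change was −1.79 at 20°C and 2.28 at 25°C, where it stood at 118.8 and 352 in WT and at 838 and 1180 in *nmad-1*. For col-106 it was −1.08 and 0.41, with 1075 and 1657 in WT and 1763 and 1786 in *nmad-1* at 25°C. For F55B11.2 it was −1.24 and 0.91, with 284 and 359.7 in WT and 519 and 698 in *nmad-1* at 25°C. For fbxa-92, an F-box family member annotated as a pseudogene, which did not pass the threshold at 20°C (33.9 and 29.3 in WT, 12.5 and 1.051 in *nmad-1*), it was −2.63 and 0.60. For the histone gene his-31, which did not pass either, it was 1.06 and −1.20.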

How the results depend on the processing

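No paired analysis was possible because the columns carry no replicate numbers. The 59 genes past the threshold became 24 with a pseudocount of 10, 14 with a mean of at least 1, 1 with no filter beyond a mean above 0, 1 in limma without the trend, 127 with robust shrinkage, 2 with libraries scaled to the same total, and 0 with upper quartile scaling, with totals outside ribosomal RNA or with cyclic loess (1075, 1143 and 1209 genes at an unadjusted p under 0.05). With a mean of at least 100 they were 57, of which 34 were shared. Leaving out 1 library gave 5 to 4180 genes; the lone sample of a genotype was then assumed to vary like the other genotype. The *nmad-1* transcript had an adjusted p over 0.05 with no filter (−2.04, 0.363), without the trend (−2.04, 0.598), and with upper quartile (−1.88, 0.199), same total (−1.99, 0.054), same total outside ribosomal RNA (−1.83, 0.173) and cyclic loess scaling (−2.06, 0.117). Its log2 fold change ranged from −2.14 to −1.94 with 1 library left out, and it missed the threshold without WT A (adjusted p 0.157) or WT B (0.332). Of the 13 fits to all 4 libraries, cTel55X.1 passed in 10 and C08F11.7 in 8, and none of the 59 genes passed in all. The upper quartile and same total outside ribosomal RNA scalings moved the median of all genes from −0.05 to 0.11 and 0.16, and the medians of the replication, repair, apoptosis, stem cell, chromatin, oocyte and neuropeptide lists changed sign under some scalings, while those of the ribosomal protein, histone, sperm and col lists did not. The causes were not tested.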
